A study of Homo sapiens with 5 samples.

Results

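The comparison set the arrays of 2 leukotrienes against the arrays of 2 lipoxins in MonoMac6 cells, a human monocytic leukaemia line. It holds 4 of the 5 arrays of the series, chosen by their titles: leukotriene B4 and leukotriene C4 on one side, lipoxin A4 and lipoxin B4 on the other. The cells had 12 h with 1 eicosanoid at 100 nM, diluted out of DMSO, and the fifth array holds unstimulated cells, for which no source used here says whether DMSO was added. Each compound was read on 1 array, so the 2 arrays of a class are different compounds and not replicates of a condition.

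Leukotrienes and lipoxins are both made from arachidonic acid by lipoxygenases. Leukotriene B4, a dihydroxy acid, is known as a chemoattractant of neutrophils and acts through the receptor LTB4R, while leukotriene C4, a glutathione conjugate, is the parent of the cysteinyl leukotrienes that contract smooth muscle through CYSLTR1 and CYSLTR2. Lipoxins A4 and B4 are trihydroxy acids with a conjugated tetraene, made when lipoxygenases of different cells act in turn. They are known for ending the influx of neutrophils, and lipoxin A4 binds the formyl peptide receptor FPR2. The title of the series divides its eicosanoids into pro- and anti-inflammatory ones, and the comparison asks whether the arrays divide in the same way.

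Of the monocyte and macrophage markers, 9 of 12 were measured. A measured gene has a probe set with 1 gene symbol in the platform annotation and above a floor signal of 48.7 on at least 1 of the 4 arrays. A gene without such a probe set is not thereby shown to be unexpressed. The lysozyme LYZ had signals of 47389 and 48899 with leukotrienes B4 and C4, against 46099 and 36105 with lipoxins A4 and B4, and CD14 had 188 and 319 against 225 and 195. The markers ran in both directions, with 4 of 9 above 0, against 8658 of all 14870 genes, and a median class difference of -0.11. LYZ was separated and higher with the leukotrienes, while the protease CTSS (4137 and 3840 against 5172 and 4430) and the integrin ITGAM (127 and 170 against 178 and 178) were separated and lower. These counts, 1 higher and 2 lower of 9, stand beside 17.9% and 11.6% of all genes separated at any size. The markers of 6 other cell types were dim by the median signal of their probe sets, between 5.4 and 47.0 on the 4 arrays. Single members were bright. PECAM1 of the fibroblast and endothelium list had 5138 and 4697 against 4857 and 4698. MBP of the nerve and muscle list had 1479 and 1614 against 1573 and 1509. The ratio of 3′ to 5′ probe sets of GAPDH, a measure of RNA integrity, was 0.996 and 1.06 with the leukotrienes against 1.02 and 1.03 with the lipoxins, so the classes overlapped. Each array had been scaled to one trimmed mean before deposit, 500.1 on all 5.

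The classes were separated at a gene when both leukotriene values lay on one side of both lipoxin values. Of 14870 measured genes, 389 were separated with class means at least 1.5-fold apart, which is 2.62% of those measured. Both leukotriene arrays were higher at 254 of these genes (1.71%) and lower at 135 (0.908%). The 4 arrays can be paired in 2 other ways, and these gave slightly more genes: 414 (2.78%) for leukotriene B4 and lipoxin A4 against leukotriene C4 and lipoxin B4, and 416 (2.8%) for leukotriene B4 and lipoxin B4 against leukotriene C4 and lipoxin A4. The first of these mixed pairings had 201 higher (1.35%) and 213 lower (1.43%), and the second 155 higher (1.04%) and 261 lower (1.76%). At 2-fold or more the class pairing separated 46 genes (0.309%), with 30 higher (0.202%) and 16 lower (0.108%), against 47 (0.316%) and 52 (0.35%) in the mixed pairings. With the nearest arrays of the pairs at least 1.5-fold apart it separated 96 (0.646%), with 59 higher (0.397%) and 37 lower (0.249%), against 88 (0.592%) and 106 (0.713%). Among the 11142 genes above the floor on all 4 arrays it separated 168 at 1.5-fold (1.51%), with 101 higher (0.906%) and 67 lower (0.601%), against 188 (1.69%) and 187 (1.68%). Without a limit on size the class pairing separated 4388 (29.5%), with 2662 higher (17.9%) and 1726 lower (11.6%), against 4344 (29.2%) and 4313 (29%).

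**Figure D1:**
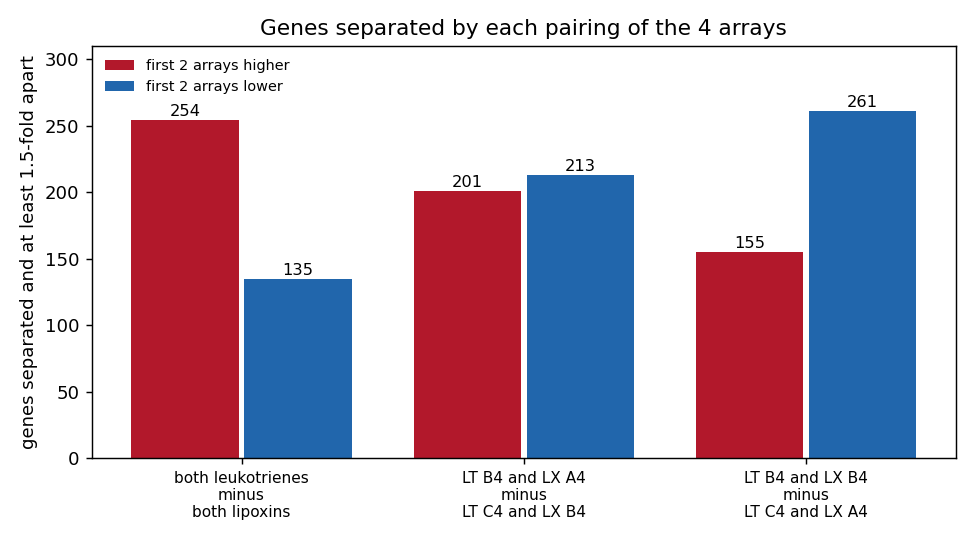
Bars give the number of genes (of 14870 measured) separated by each of the 3 pairings of the 4 stimulated arrays with means at least 1.5-fold apart, higher (red) or lower (blue) on the first 2 arrays named; LT is leukotriene and LX lipoxin. The class pairing has 254 and 135, and the mixed pairings have 201 and 213, and 155 and 261.

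The split between higher and lower genes moved with the scaling of the arrays. Of the 389 genes, 65.3% were higher with the leukotrienes, against 46.6% of 386 genes after quantile normalization, which gives all arrays the same distribution of signals (180 higher and 206 lower). The excess of higher genes is therefore not reported as a difference between the compounds. The median class difference of all measured genes was 0.03 on the log2 scale as scaled here and 0.00 after quantile normalization.

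A model fitted across all genes (limma, class as the only factor) set each class difference against the spread between the 2 compounds of a class. No gene passed an adjusted p under 0.05 (0 of 14870, or 0%; smallest adjusted p 0.907), and 683 genes (4.59%) had an unadjusted p under 0.05. The fits of the mixed pairings called 0 genes as well, with 678 and 623 at an unadjusted p under 0.05. Restricted to the 11142 genes above the floor on all 4 arrays, a filter chosen after seeing the data, the class fit called 2, CACNG4 and TMA16, both at an adjusted limma p of 0.00382 and both lower with the leukotrienes. In the fit of all 14870 genes the same class differences had unadjusted limma p of 0.000635 and 0.000624, and both an adjusted p of 0.907. The call of these genes thus depended on which genes entered the fit. Standard errors given below come from the fit of all 14870 genes. For a single gene, an exact two-sided permutation test of 2 arrays against 2 cannot give a p below 0.333.

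Single arrays differed as much within a class as between classes. The median absolute log2 difference per gene was 0.16 between leukotrienes B4 and C4 and 0.13 between lipoxins A4 and B4. Between the classes it was 0.13 and 0.14 for leukotriene B4 with lipoxins A4 and B4, and 0.16 and 0.17 for leukotriene C4 with them. The 3 pairs with leukotriene C4 were thus the widest, and leukotriene B4 lay nearer to both lipoxins than to the other leukotriene.

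Most separated genes were dim. Of genes with a mean signal under 100, 6.26% were separated at 1.5-fold or more, and of those between 500 and 2000, 0.278%. None was among the 2613 genes between 2000 and 10000 or the 542 above that. Of the 254 higher genes 66 were under the floor on both lipoxin arrays, and of the 135 lower genes 26 were under it on both leukotriene arrays. EEF2KMT, named after its values were seen, which methylates elongation factor 2, had the largest class difference of all: it was under the floor on both leukotriene arrays, against 192 and 235 with lipoxins A4 and B4, and so at least 4.36-fold lower with the leukotrienes.

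**Figure D2:**
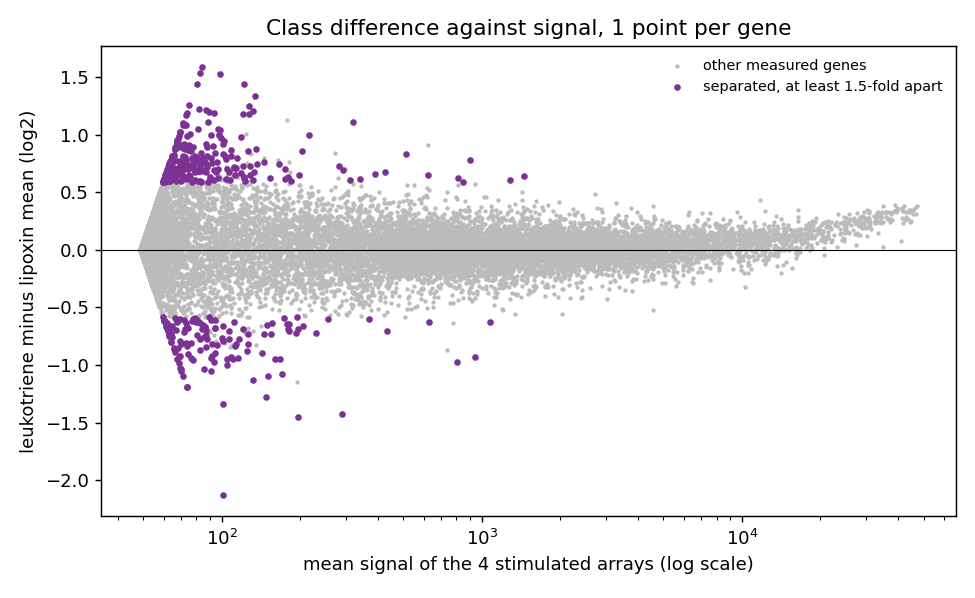
Each point is 1 of 14870 measured genes; the x axis gives its mean signal over the 4 stimulated arrays on a log scale and the y axis the leukotriene minus lipoxin difference of mean log2 signal. Purple points are the 389 genes separated by class and at least 1.5-fold apart, of which 280 have a mean signal under 100; grey points above a signal of 10000 lie mostly over 0.

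At 11 genes with a mean signal over 500 the classes were separated at 1.5-fold or more, which is 0.155% of 7110 such genes, against 7 (0.0985%) in each of the mixed pairings. Both leukotriene arrays were higher at 7 of them (0.0985%: RGS1, CXCL8, MAPK3, DYNC1H1, INTS9, NOTCH2NLA and PTPN14) and lower at 4 (0.0563%: TMA16, WDR76, ANKRD12 and YIPF4). The other probe sets of PTPN14, ANKRD12 and YIPF4 had the opposite sign in every case. MAPK3, DYNC1H1, INTS9, NOTCH2NLA, PTPN14, ANKRD12 and YIPF4 were named after their values were seen.

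RGS1, which shortens signalling by G protein-coupled receptors such as those for chemokines, had signals of 1076 and 1298 with leukotrienes B4 and C4, against 614 and 769 with lipoxins A4 and B4. The groups did not overlap, and the unstimulated array lay between them at 923. The class difference was 0.78 on the log2 scale (standard error 0.16, limma), and the other probe set gave 0.53 and was separated too.

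CXCL8, the neutrophil chemoattractant interleukin 8, had 896 and 1123 with leukotrienes B4 and C4, against 701 and 605 with lipoxins A4 and B4. The leukotriene B4 value was equal to that of unstimulated cells (896). On this probe set, the brightest, the lipoxin arrays thus lay below the unstimulated one and leukotriene C4 above it. Its class difference was 0.62, and its other probe set gave 0.43, with 289 and 293 against 252 and 187. Unstimulated cells had 250 on that probe set, so lipoxin A4 lay beside them and leukotriene B4 above. MAPK3, the kinase ERK1, had 854 and 713 with the leukotrienes against 444 and 561 with the lipoxins, on 1 probe set.

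TMA16, a protein bound to ribosomal precursors in yeast, was lower on both leukotriene arrays. It had 636 and 518 with leukotrienes B4 and C4, against 1087 and 1173 with lipoxins A4 and B4, and 642 in unstimulated cells. The leukotriene values lay beside the unstimulated one, and both lipoxin values lay well above it. The class difference was -0.98 (standard error 0.14, limma). WDR76, a protein of the DNA damage response, had 551 and 463 against 777 and 778, with 568 in unstimulated cells, so it ran in the same order. Its other probe set gave -0.02.

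HINT3, a histidine triad hydrolase, was separated on all 3 of its probe sets. The brightest had 507 and 531 with leukotrienes B4 and C4, against 717 and 695 with lipoxins A4 and B4. A second had 155 and 242 against 304 and 296, and the third 523 and 218 against 1236 and 921. All 3 were lower with the leukotrienes, by log2 differences of -0.44, -0.63 and -1.66. HINT3 was picked among genes with no probe set of opposite sign, so that rule fixed the shared sign. On all 3 the lipoxin arrays lay farther above the unstimulated array (408, 119 and 299) than the mean of the leukotriene arrays did.

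The other bright genes with the widest gaps had class differences under 0.6 on the log2 scale. Higher with the leukotrienes were WDR46, a nucleolar protein of ribosome assembly (1203 and 1227 against 874 and 890), the ubiquitin ligase HERC2 (714 and 724 against 513 and 537), TASOR2 (1757 and 1629 against 1241 and 1157) and N4BP2 (940 and 1029 against 638 and 698). Lower were RNF11, a partner of the ubiquitin-editing enzyme A20 (1517 and 1533 against 1973 and 2058), and NOCT, the clock-controlled phosphatase nocturnin (416 and 451 against 620 and 613). In each of these the 2 arrays of a class were close to each other. TASOR2 and N4BP2 were lower in unstimulated cells (977 and 509) than on any stimulated array, and so was RNF11 (1276).

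MIR142, the precursor transcript of miR-142, which is abundant in blood cells, had the widest gap among genes of signal over 500 that were higher with the leukotrienes and had no probe set of opposite sign. It had 683 and 647 with leukotrienes B4 and C4, against 444 and 458 with lipoxins A4 and B4, and 655 in unstimulated cells. Its second probe set gave 125 and 84.9 against a value under the floor and 73.5. The class differences were 0.56 and 0.78. The array reads the transcript to which the platform annotation gives this symbol and not the mature miRNAs. Both mature miRNAs lie on the minus strand of chromosome 17 (GRCh38.p14, RefSeq), miR-142-5p at chr17:58331283-58331303 and miR-142-3p at chr17:58331245-58331267, and are shown because this gene is the one miRNA gene among those named; the seed, bases 2 to 8, is in capitals and differs between them.
hsa-miR-142-5p: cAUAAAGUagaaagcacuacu
hsa-miR-142-3p: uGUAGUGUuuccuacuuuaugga

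Below a signal of 500, CACNG4 had the widest gap of all genes above the floor on every array. This auxiliary subunit of calcium channels and AMPA receptors had 184 and 172 with leukotrienes B4 and C4, against 523 and 436 with lipoxins A4 and B4, and 244 in unstimulated cells. The groups were more than 2-fold apart at their nearest values, and the class difference was -1.43 (standard error 0.20, limma). It has 1 probe set.

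Other dim genes that were lower with the leukotrienes included ZC3H6, a zinc finger protein (100.1 and 107 against 239 and 205; other probe set -0.22), AIFM3, of the apoptosis-inducing factor family (67.5 and 59.0 against 128 and 133), and MROH6 (103 and 133 against 238 and 256). The sign of the other probe set of ZC3H6 was fixed by the rule that picked it, which allowed none of opposite sign. SHPK, the sedoheptulose kinase of the pentose phosphate pathway, had 107 and 85.2 against 168 and 168. MAP3K2-DT and APCDD1L-DT, both divergent transcripts, and ZNF784 and MROH8 had gaps between the nearest arrays of -0.66 to -0.79 on the log2 scale. The unstimulated value lay above all 4 arrays for AIFM3, MROH6 and APCDD1L-DT.

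Higher with the leukotrienes were PLXNA1, a receptor of semaphorins (314 and 241 against 159 and 145), with both of its probe sets at 1.5-fold or more, and APOBEC3D, a cytidine deaminase that restricts retroviruses (136 and 133 against 77.7 and 73.8). The adenylyl cyclase ADCY2 had 107 and 99.0 against 57.9 and 51.5. The homeobox gene DLX1 had 116 and 124 against 60.4 and 69.1, and the chromatin protein BAHCC1 had 134 and 145 against 61.2 and 82.7. ZNF532 (other probe set 0.39), ZNF530 (other probe set 0.07), RNF227, METTL14-DT and ZMIZ1-AS1 had gaps between the nearest arrays of 0.62 to 0.77. PLXNA1, ZNF532 and ZNF530 were picked among genes with no probe set of opposite sign, so that rule fixed the shared signs. ADCY2, ZNF532, PLXNA1 and ZMIZ1-AS1 had unstimulated values beside or above the leukotriene ones (105, 182, 284 and 127), while APOBEC3D and DLX1 had values beside the lipoxin ones (69.9 and 62.4). The sulfotransferase CHST5 was under the floor on both lipoxin arrays, against 99.7 and 213 with leukotrienes B4 and C4, a log2 difference of at least 1.58. Its other probe set was separated too, at 57.3 and 128. That probe set was also under the floor on both lipoxin arrays, so it could not have been separated the other way.

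**Figure D3:**
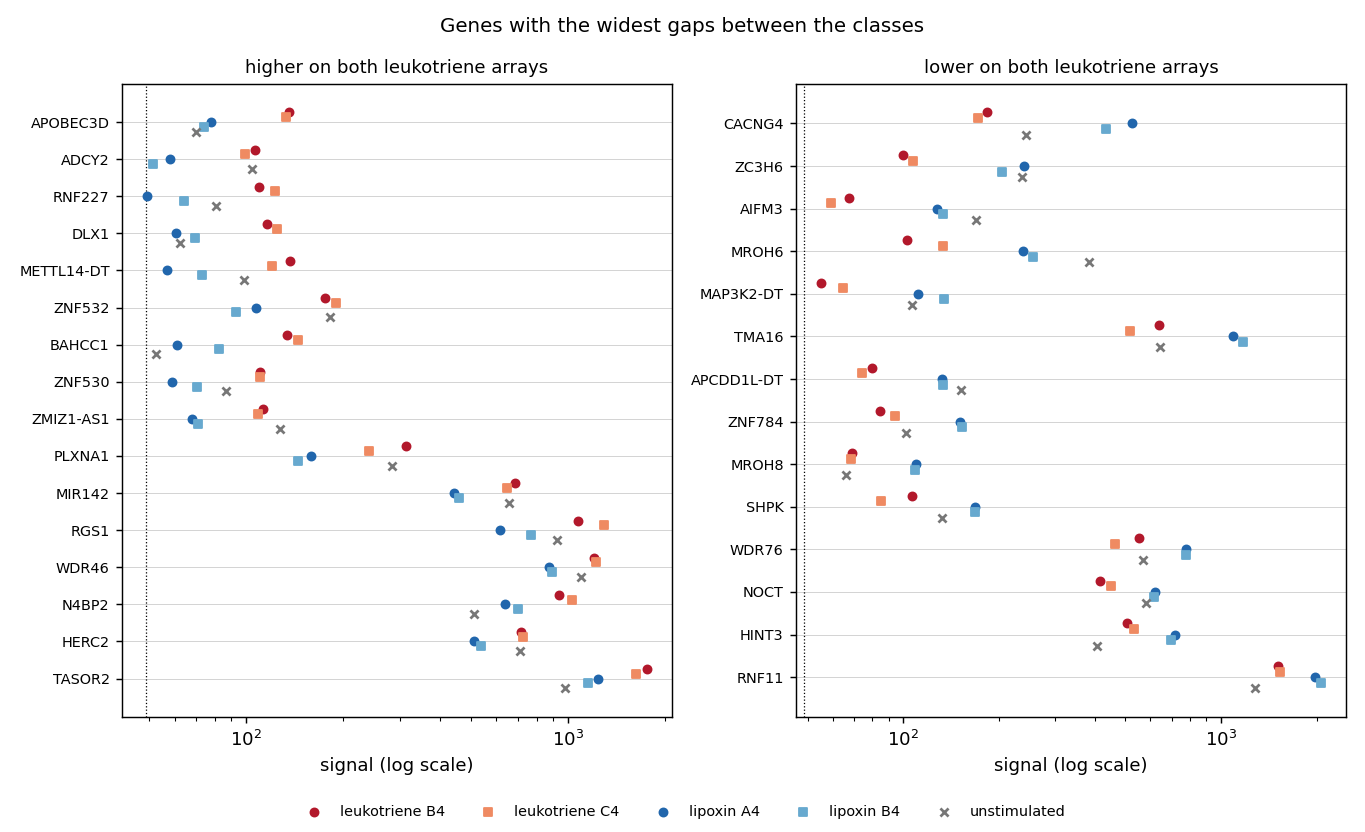
Points give the signal (log scale) on each of the 5 arrays for the genes with the widest gaps between the nearest arrays of the classes, in the whole signal range and above a signal of 500. Red and orange are leukotrienes B4 and C4, blue and light blue lipoxins A4 and B4, crosses the unstimulated array, and the dotted line the floor of 48.7; no gene shown has overlapping classes.

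The unstimulated array sided with neither class in particular, but in both directions it was more often nearer the class with the higher values. Among the 254 genes higher with the leukotrienes it was nearer the lipoxin mean at 111 and nearer the leukotriene mean at 143. Among the 135 lower genes these counts were 78 and 57. It lay above all 4 stimulated arrays at 48 and 30 genes and below them at 16 and 8. Since values under the floor were set to it, the array could lie below only at the 101 and 67 genes above the floor on all 4.

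Other probe sets of the same gene had either sign about as often. The 389 separated genes had 199 other measured probe sets, of which 107 (53.8%) had the sign of the brightest and 92 the opposite sign. Only 7 (3.52%) were separated the same way at 1.5-fold or more. The mixed pairings gave 53.5% and 56.5% of the same sign. Over all probe sets, 27 genes had at least 2 separated the same way at 1.5-fold or more, 0.371% of the 7282 genes with several measured probe sets, against 21 (0.288%) and 12 (0.165%) in the mixed pairings. Besides HINT3, CHST5 and PLXNA1 these included STXBP4, a syntaxin-binding protein with 3 probe sets lower with the leukotrienes, NCAPH2, a condensin subunit with 3 lower and 1 higher by 0.52, and DYNC1H1, the dynein heavy chain, with 2 higher and 1 lower at that size. The brightest probe set of NCAPH2 overlapped, at 281 and 314 with the leukotrienes against 301 and 249 with the lipoxins (0.12). Another probe set of STXBP4 overlapped as well (0.05). Of its 3 lower probe sets, 1 was under the floor on both leukotriene arrays and could not have been separated the other way. A second was under the floor with leukotriene B4 and at 49.9 with leukotriene C4. STXBP4, NCAPH2 and DYNC1H1 were named after their values were seen.

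Some genes had a large class difference that came from 1 array. At 96 genes (0.646%) the class means were at least 1.5-fold apart while the class values overlapped. The array farthest from the median of the 4 was leukotriene C4 at 43 of them, lipoxin A4 at 20, lipoxin B4 at 18 and leukotriene B4 at 15. ENPP2, which encodes autotaxin, had 395 and 1831 with leukotrienes B4 and C4, against 449 and 460 with lipoxins A4 and B4. Its class difference of 0.91 turned to -0.20 without the leukotriene C4 array. CCL20, a chemokine that binds CCR6, was under the floor on all arrays except leukotriene C4 (160). The brightest probe set of the potassium channel KCNQ1 was likewise above it with leukotriene C4 alone (161), but its other probe set was above it with leukotriene B4 alone (99.7).

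SLC11A1, the metal transporter of phagosomes, had 231 and 298 with the leukotrienes, against a value under the floor with lipoxin A4 and 299 with lipoxin B4. Its other 2 probe sets were separated and higher with the leukotrienes, by 0.91 and 1.23. The one at 0.91 had 102 and 169 against 56.6 and 85.9. The one at 1.23 had 242 and 217, against 197 with lipoxin A4 and a value under the floor with lipoxin B4. The probe sets of SLC11A1 thus differed in which lipoxin array was low. RABGEF1P1 was under the floor with lipoxin B4 alone. Among the lower genes, TTC38 was low with leukotriene C4 alone (59.7, against 271 to 310 on the other stimulated arrays, and 143 in unstimulated cells), CREB3L1 was under the floor there on its brightest probe set but at 75.9 on the other, and TMEM95 was under the floor with leukotriene B4 alone. EIF5A, a translation factor that carries hypusine, was low with leukotriene B4 (320, against 834 to 1186 on the other stimulated arrays, and 511 in unstimulated cells), while another of its probe sets was separated at 318 and 453 with the leukotrienes against 528 and 636 with the lipoxins (-0.61), and SLC38A2-AS1 was above the floor with lipoxin A4 alone among the stimulated arrays (225, and 106 in unstimulated cells). The overlap of these genes holds for the brightest probe set as scaled here. SLC38A2-AS1 (-1.12) and CREB3L1 (-0.89) were separated after quantile normalization, KCNQ1 (1.71) with a floor at the 30th percentile, and SLC11A1 (1.09) and KCNQ1 (0.69) with probe sets averaged.

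**Figure D4:**
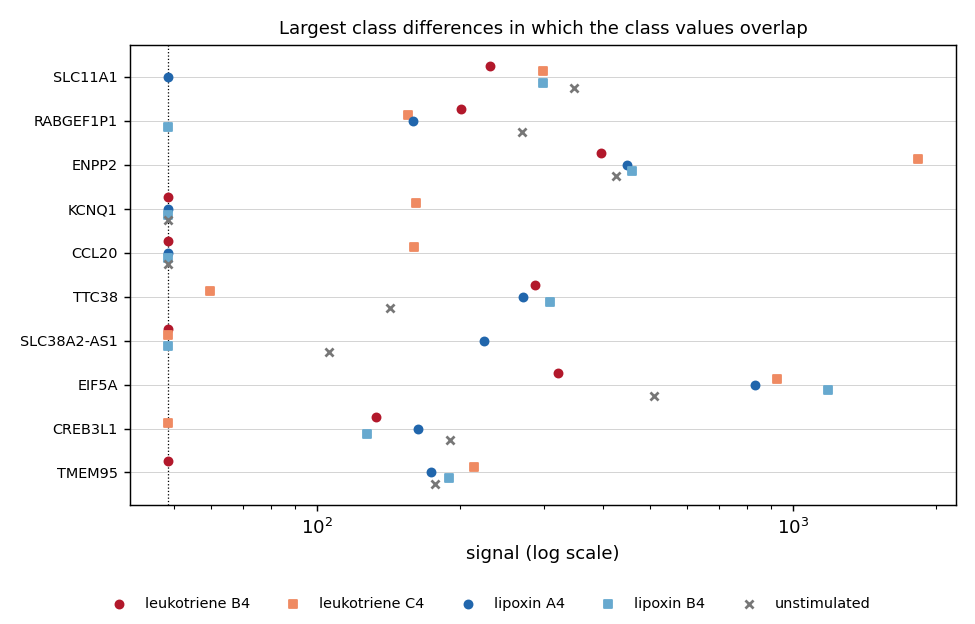
Points give the signal (log scale) on each of the 5 arrays for the 5 genes in each direction with the largest class difference among those whose class values overlap. Red and orange are leukotrienes B4 and C4, blue and light blue lipoxins A4 and B4, crosses the unstimulated array, and the dotted line the floor; in most, 1 array stands apart from the other 3.

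Of 20 listed enzymes of eicosanoid synthesis and breakdown 15 were measured. DPEP1 had 0 probe sets with 1 symbol and could not be measured. On the brightest probe sets 3 of the 15 were separated at any size, against 29.5% of all genes, and 0 at 1.5-fold or more, against 2.62% of all genes. Their median class difference was 0.03, that of all measured genes. ALOX5AP, the membrane partner that 5-lipoxygenase needs in cells, had 33323 and 38844 with the leukotrienes, against 34442 and 25811 with the lipoxins. LTA4H, the last enzyme on the way to leukotriene B4, had 3772 and 3863 against 3940 and 3753, and ALOX5 itself had 119 and 140 against 119 and 128. LTC4S, the leukotriene C4 synthase, had 144 and 227 against 223 and 231. On the brightest probe sets of these 4 the classes overlapped; LTA4H (-0.03) and LTC4S (-0.35) were separated with the values as deposited.

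HPGD, which inactivates prostaglandins and lipoxin A4, was separated at 901 and 1123 with the leukotrienes against 1347 and 1268 with the lipoxins (-0.38), but its other 3 probe sets gave -0.05 to 0.44. The actin-binding COTL1, a partner of 5-lipoxygenase, had 1300 and 1334 against 1486 and 1607 on its brightest probe set. Another probe set of COTL1 overlapped with the opposite sign, at 1323 and 1588 against 1232 and 1455 (0.11), and the last gave -0.08. MGST3, a microsomal glutathione transferase, had 10233 and 11377 against 8957 and 9708 on its brightest probe set (0.21). A second probe set of MGST3 had 401 and 436 with the leukotrienes and was under the floor with both lipoxins, at least 8.60-fold, though it was 561 in unstimulated cells. The third gave 0.43. MGST2 (0.01), PLA2G4A (0.08) and PLA2G4C (0.20) overlapped. PTGR1 gave 0.01 on its brightest probe set, and -0.12 and -0.43 on the others, of which the last was separated at 60.5 and 77.6 with the leukotrienes against 84.9 and 100.04 with the lipoxins. DPEP2 was below the floor on 1 array, and ALOX12, GGT1 and CYP4F2 were above it on 1 array each.

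Of 21 listed receptors 15 were measured, with a median of 0.09. LTB4R2 had 0 probe sets with 1 symbol and could not be measured. On the brightest probe sets 5 of the 15 were separated at any size, against 29.5% of all genes, and 1 at 1.5-fold or more, against 2.62%. That one was PTGDR2, a prostaglandin D2 receptor, with 76.2 and 75.1 against values under the floor on both lipoxin arrays, at least 1.55-fold higher with the leukotrienes. LTB4R had 687 and 702 with the leukotrienes, against 689 and 651 with the lipoxins, and CYSLTR1 had 1240 and 1135 against 1167 and 1040. FPR2 lay at 54.5 and under the floor, against under the floor and 54.0. At LTB4R, CYSLTR1 and FPR2, receptors of these compounds, the classes overlapped. On the brightest probe sets FPR1 (-0.37) and CMKLR1 (-0.41) were lower and PTGIR (0.48) and TBXA2R (0.38) higher with the leukotrienes without reaching 1.5-fold. TBXA2R overlapped after quantile normalization. FPR1 was under the floor with leukotriene B4, CMKLR1 with leukotriene C4 and PTGIR with both lipoxins. The other probe set gave 0.36 for CMKLR1 and -0.11 for PTGIR, and those of TBXA2R gave -0.15 to 0.23. PTGER1 was high with leukotriene C4 alone (108), and CYSLTR2, AHR, PTGER2, PTGER3, PTGER4 and OXER1 overlapped on their brightest probe sets. OXER1 (-0.04) was separated with the values as deposited. Of the other probe sets of PTGER3 a pair was separated at 1.5-fold or more, in opposite directions (-0.61 and 0.71).

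Over the 22 gene lists together, 385 genes were measured, and 5 were separated and higher with the leukotrienes at 1.5-fold or more and 3 lower. That is 2.08%, against 2.62% of all genes. Besides RGS1, CXCL8 and PTGDR2 the higher genes were PTGES, a prostaglandin E2 synthase (62.1 and 138 against under the floor on both lipoxin arrays), and NR4A2 (76.8 and 71.4 against under the floor on both). Both NR4A2 and NR4A1 encode orphan nuclear receptors. The lower genes were SOCS3, NR4A1 and NFATC2.

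SOCS3, a feedback inhibitor of cytokine receptors, had 60.7 and 79.8 with the leukotrienes against 136 and 123 with the lipoxins. Another of its probe sets was separated the opposite way, at 61.9 and 84.5 against 59.2 and 53.2. NR4A1 had 63.7 and a value under the floor against 109 and 106, with -0.15 and -0.09 on its other probe sets. NFATC2, a calcium-dependent transcription factor, had a value under the floor and 70.4 against 94.1 and 93.4, while its other probe sets gave 0.34 and 0.46. The other probe set gave 0.23 for PTGES and -0.07 for NR4A2. Among markers of other cell types APOA1 was the one separated at 1.5-fold, with 64.9 and 105 against under the floor and 53.2.

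The pro-inflammatory cytokines had a median of 0.08 over 9 genes, with 1 separated: IL1B had 1144 and 1116 with the leukotrienes, against 1059 and 1000.5 with the lipoxins. The chemokines had 0.05 over 14 genes, with 3 separated and higher and 2 lower at any size, against 17.9% and 11.6% of all genes. The higher were CXCL8, CXCL1 (217 and 230 against 197 and 174) and CXCL2 (90.6 and 79.3 against 66.7 and 69.3). CXCL5 overlapped, at 59.0 and under the floor against under the floor on both lipoxin arrays. The lower were the interferon-induced CXCL10 (79.6 and 95.8 against 128 and 108) and CCL23. IL1B, CXCL1, CXCL2, CXCL5, CXCL10 and CCL23 were named after their values were seen. The anti-inflammatory and feedback genes had a median of 0.01 over 22 genes and the NF-kappaB subunits and targets 0.04 over 19, so neither lay apart from the 0.03 of all genes. After quantile normalization the chemokines had a median of -0.05.

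Ribosomal protein genes had the highest list median, 0.28 over 17 genes, with 17 of 17 above 0, against 8658 of all 14870 genes, and 16 separated and higher, against 17.9% of all genes. Their signals were among the highest on the arrays, and the 542 genes with a mean signal over 10000 had a median class difference of 0.13. On these bright genes lipoxin B4 lay 0.17 below the mean of the other 3 arrays, leukotriene C4 0.17 above, and leukotriene B4 and lipoxin A4 within 0.02. Without 1 array the ribosomal median was 0.14 (lipoxin B4), 0.22 (leukotriene C4), 0.35 (leukotriene B4) or 0.42 (lipoxin A4), with 17 of 17 above 0 each time, and after quantile normalization it was 0.01 with 9 of 17 above 0.

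The NRF2 targets (0.16 over 17 genes) and the LXR and PPAR targets (0.14 over 18) were the other lists at least 0.1 above all genes. SLC7A11, the cystine transporter, was separated at 700 and 655 with the leukotrienes against 510 and 508 with the lipoxins. HMOX1, the haem oxygenase, had 108 and 210 against 93.6 and 130. PPARG had 3059 and 3061 against 2733 and 2583. Separated and lower in the same lists were GCLM and NQO1 of the NRF2 targets (-0.07 and -0.02), and ANGPTL4, SREBF1 and NR1H3 of the other (-0.58, -0.30 and -0.14). SLC7A11, HMOX1, PPARG and these 5 genes were named after their values were seen. After quantile normalization the medians were 0.04 and 0.10, and without leukotriene C4 they were 0.04 and 0.04. Without lipoxin B4 they were 0.07 and 0.06, without leukotriene B4 0.23 and 0.17, and without lipoxin A4 0.21 and 0.22. The phagocytosis and clearance receptors had the lowest median, -0.07 over 20 genes, which became 0.04 without lipoxin A4, -0.18 without lipoxin B4 and -0.11 without leukotriene C4.

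The remaining lists lay between -0.03 and 0.10. The interferon-stimulated genes had 0.07 over 26, with 10 separated and higher and 2 lower (against 17.9% and 11.6% of all genes), the cell cycle genes 0.05 over 26, the mitochondrial respiratory chain 0.09 over 20 and the heat shock proteins 0.10 over 11. In the mixed pairings the list medians lay between -0.12 and 0.08 and between -0.25 and 0.02.

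**Figure D5:**
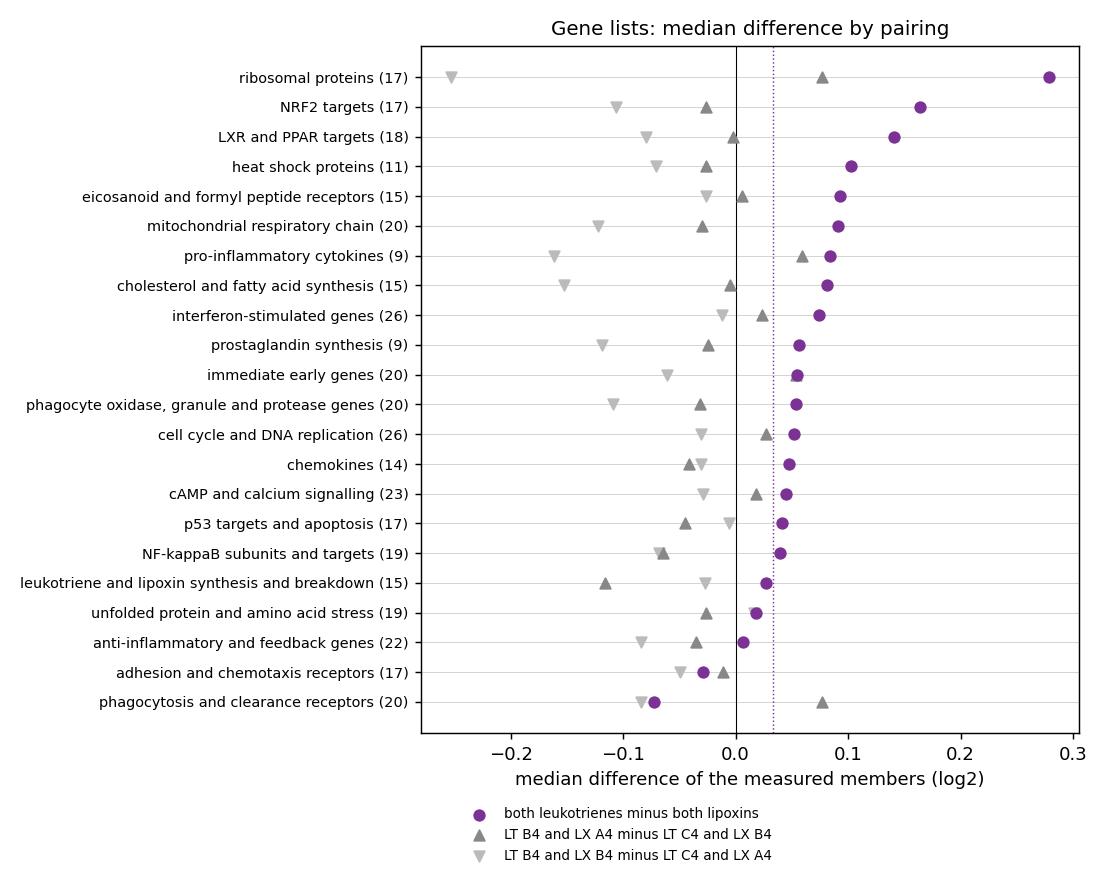
Each row is a gene list with the number of measured members in brackets; points give the median log2 difference of the members for the class pairing (purple circles) and the 2 mixed pairings (grey triangles), where LT is leukotriene and LX lipoxin. The dotted line is the median of all measured genes in the class pairing, 0.03; ribosomal proteins lie at 0.28 by class and at -0.25 in the second mixed pairing.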

How the data were processed

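The deposited table holds intensity signals on a linear scale for 54675 probe sets on 5 arrays. Per the submitters' processing notes, GCOS (1.4) produced them; no source used here names the signal algorithm. Groups come from the sample titles. Genes were named from the 41097 probe sets with 1 symbol in the platform annotation (1801 have several, 11777 are not listed), with symbols updated through 41043 matched gene identifiers.

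Signals were put on the log2 scale, and each array was scaled by 1 factor to an equal median over the upper 50% of probe sets. Values under the 50th percentile of mean signal, the floor, were set to it. A gene was represented by its measured probe set of highest mean signal. A difference with a class at the floor on both arrays is a bound against it. Class differences are leukotriene minus lipoxin means of log2 signal. The fit used limma 3.58.1 in R 4.3.3 (lmFit, eBayes with trend, Benjamini-Hochberg); its p-values treat the 2 compounds of a class as samples of it. The counting and the fit were tested on simulated data.

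Named genes were those above the floor on all 4 arrays with no probe set of opposite sign and the widest gaps (up to 10 in each direction, and up to 6 over a signal of 500), up to 3 in each direction known as bounds and backed by another probe set, up to 5 in each direction with overlapping classes, up to 3 separated members of each list, and the eicosanoid enzymes and receptors. MUC5AC also met the rule for bounds, by a gap of 0.03, and 1 gene that met the rule for signals over 500 is not reported here. Members and lists were chosen with earlier results of these data known. Alternatives were other floors, deposited values without rescaling, quantile normalization, averaging a gene's probe sets, stricter folds, only genes above the floor on all 4 arrays (chosen after seeing the data), a fit without trend and leaving out each array.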

Additional observations from a re-analysis of the deposited data

Results flagged for a closer look

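18S rRNA, which enters none of the comparisons, gave more signal on its middle control probe set on every stimulated array than on the unstimulated one. The ratio to unstimulated cells was 4.9 for leukotriene B4 and 16.5 for leukotriene C4, against 1.96 for lipoxin A4 and 5.66 for lipoxin B4. On this probe set the classes overlapped. They did not on the 3′ probe set of 18S rRNA, with signals of 37847 and 43345 for leukotrienes B4 and C4, against 24195 and 27367 for lipoxins A4 and B4, and 12718 in unstimulated cells. For 28S rRNA, the middle probe set also separated the classes, at 4195 and 5550 with the leukotrienes, against 2628 and 3078 with the lipoxins, and 1930.4 in unstimulated cells. The classes overlapped on the 5′ probe sets of 18S rRNA (744 and 2852 against 334 and 944) and 28S rRNA (2019 and 2932 against 1275 and 2233). They also overlapped on the 3′ probe set of 28S rRNA (79.4 and 79.2 against 89.6 and 47.7). The part of the rRNA signal in the class differences was not tested.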

How the results depend on the processing

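The number of arrays, 1 per compound, limits the precision, and so does the signal of dim probe sets. The counts of separated genes at 1.5-fold or more, 254 higher and 135 lower with the leukotrienes, moved with the floor: 1076 and 613 with a floor at the 30th percentile of signal, 11 and 7 at the 70th, and 101 and 67 among genes above the floor on all 4 arrays, a setting chosen after seeing the data. They were 59 and 37 where the nearest arrays had to be 1.5-fold apart, and 30 and 16 at 2-fold class means. After quantile normalization 206 genes were lower. With 1 array left out a gene has fewer values to separate, and the counts were 388 to 858 higher and 298 to 399 lower (858 and 307 without leukotriene B4, 453 and 300 without leukotriene C4, 460 and 298 without lipoxin A4, 388 and 399 without lipoxin B4), or 4550 to 6755 and 3274 to 4197 at any size. The class fit called 0 genes in each alternative except for the 2 genes among those above the floor on all 4 arrays. Of 48 separated named genes, 47 stayed separated the same way after quantile normalization, 48 with the values as deposited and 43 with the mean of all probe sets. In the last of these settings the class difference of NFATC2 turned to 0.0387, the average over its 3 probe sets (-0.68, 0.34 and 0.46). At the 70th percentile floor 19 were measured and 17 stayed separated the same way. With 1 array left out, 46 to 48 did. Leaving out an array cannot undo the separation of a probe set, so these counts do not show how stable the genes were. Lists at least 0.1 from the median of all genes numbered 4, and 1 after quantile normalization; with 1 array left out there were 2 to 6. No paired analysis was possible because each compound has 1 array and the labels give no replicate numbers.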

Other observations

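Probe sets that are not the brightest of their gene included wider gaps between the classes than most of those above. Besides MGST3, a second probe set of ATP5F1A, a subunit of ATP synthase, had 127 and 140 with leukotrienes B4 and C4, against 50.2 and 51.1 with lipoxins A4 and B4, while the brightest gave a class difference of 0.28. One of CR1, complement receptor 1, had 100.7 and 110 against values under the floor on both lipoxin arrays, with 0.09 on the brightest. One of CASP2, an initiator caspase, had 56.2 and 60.6 against 118 and 134, with 0.24, the opposite sign, on the brightest. These genes were named after their values were seen, and the differences were not tested.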
